A study of Homo sapiens with 48 samples.

Results

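Messenger RNA of 7 CC chemokine genes, CCL2, CCL3, CCL5, CCL7, CCL8, CCL20 and CCL26, was followed in 48 RNA-seq libraries of 2 human lines, the lung fibroblast line IMR-90 and the melanoma line SK-MEL-103. The members were the rows of the count table whose Ensembl identifiers carry these symbols, 7 of 48898 genes in the table. All 7 rows were found. The libraries formed 16 groups of 3. In the siRNA experiments each line had 6 groups. These were untreated proliferating cells with control siRNA, and cells made senescent with 200 nM doxorubicin for 48 h that had received control siRNA, siMFN1, siMFN2, both (siMFN1+2) or siMAVS one day earlier and were harvested on day 7. In the compound experiment, IMR-90 cells were kept for 48 h in DMSO (proliferating or doxorubicin-treated), or, after doxorubicin, in 20 µM MFI8, given by the submitters as a mitofusin inhibitor, or 10 µM BI, given as a mitofusin activator, and doxorubicin-treated cells were harvested on day 9. The harvest day of the proliferating cells is not given in the sources used here, and day 7 and day 9 below name the experiments. Doxorubicin is shared by every silenced and compound-treated group, so no silencing or compound was measured in proliferating cells.

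CC chemokines are small secreted proteins that bind receptors on leukocytes and draw them into tissue. CCL2, CCL7 and CCL8 act on monocytes through CCR2 and related receptors, CCL3 and CCL5 on monocytes and T cells through CCR1, CCL20 on CCR6-bearing lymphocytes and dendritic cells, and CCL26 (eotaxin-3) on eosinophils through CCR3. Senescent fibroblasts are known to secrete many cytokines and chemokines, and NF-kB is a main driver of that programme. MFN1 and MFN2 fuse the outer membranes of mitochondria, and MAVS, on the same membrane, relays RNA sensing to NF-kB and interferon factors.

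Of the members, 5 had a promoter entry in the RefSeq table (GRCh38.p14): CCL3, CCL7, CCL8, CCL20 and CCL26. The 150 bases before the start of 3 of them are shown because these genes ended at opposite extremes: CCL20 and CCL3 had the largest changes with doxorubicin in IMR-90, while CCL7 was close to silent. They lie at chr2:227813692-227813841 on the plus strand (CCL20), chr17:36090144-36090293 on the minus strand (CCL3) and chr17:34270071-34270220 on the plus strand (CCL7). The starts are those of the RefSeq table, first listed entry per gene. For CCL20 the window lies inside the gene span given below, which begins at 227805739. Capitals mark matches to an NF-kB consensus, the AP-1 letters TGANTCA and the TATA letters TATAAA, searched on both strands.

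CCL20: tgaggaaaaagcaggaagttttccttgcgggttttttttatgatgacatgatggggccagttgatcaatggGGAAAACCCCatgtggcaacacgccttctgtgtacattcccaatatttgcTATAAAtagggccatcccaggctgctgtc

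CCL3: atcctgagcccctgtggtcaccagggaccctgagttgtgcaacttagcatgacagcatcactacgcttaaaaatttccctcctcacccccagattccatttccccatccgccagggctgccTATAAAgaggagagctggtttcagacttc

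CCL7: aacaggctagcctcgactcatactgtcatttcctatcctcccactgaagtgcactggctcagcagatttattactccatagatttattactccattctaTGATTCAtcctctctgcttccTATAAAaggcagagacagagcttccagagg

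The NF-kB match in CCL20 lay 79 to 70 bases before the start on the opposite strand, and CCL7 held an AP-1 match 51 to 45 bases before the start. TATAAA began 29 bases (CCL20, CCL3) or 30 bases (CCL7, CCL8) before the start, and none of the motifs searched, a STAT6 motif among them, was found in the CCL26 window. Over 35116 promoters, windows of 250 bases held the NF-kB consensus in 5.21%, TGANTCA in 6.57%, the STAT6 motif in 5.38% and TATAAA in 10.7%. A match describes letters and is no evidence of binding.

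The libraries held 15206115 to 79204217 counts. Libraries numbered 1 in their titles were the deepest (53390716 or more), and those numbered 3 the shallowest (31127306 or fewer). Values are CPM, counts scaled to a common library size with TMM factors over all 48 libraries. A limit of 3 counts, the most that a count of 0 allows, corresponded to 0.0402 to 0.21 CPM per library, for counting error only. Each siRNA lowered its target: in IMR-90, MFN1 fell from 51.1 ± 13 CPM (SD, n = 3) to 7.69 ± 0.557 with siMFN1, MFN2 from 166 ± 11 to 18.3 ± 1.66 with siMFN2, and MAVS from 128 ± 19.9 to 45.4 ± 6.63 with siMAVS. The summed level of 8 fibroblast markers was 5106 to 50080 CPM in IMR-90 and 16.1 to 112 in SK-MEL-103. That of 8 melanocyte lineage markers was 16.8 to 79.2 in IMR-90 and 397 to 681 in SK-MEL-103. The latter sum was almost all SOX10, which reached 673 CPM. SOX10, DCT, S100B and TYR had higher maxima in SK-MEL-103, but MITF, PMEL, MLANA and TYRP1 had them in IMR-90 (MITF 75.9 against 13.1 CPM). The 8 leukocyte markers summed to at most 6.17 CPM in any library. Some libraries stood apart within their group. In IMR-90, the number 3 libraries of the doxorubicin groups other than siMAVS, which, like the proliferating number 3 library, carry library label numbers in the range 89 to 93, were low in CCL3. So were the number 2 libraries after doxorubicin of the compound experiment, in CCL3, CCL5 and CCL20. Nothing in the labels says that the libraries of a group came from separate cultures, so p-values measure the spread between these libraries, which may be technical.

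The members differed widely in level. CCL2 (ENSG00000108691, chromosome 17, 34255218 to 34257203, plus strand, GRCh38), a monocyte attractant, had the highest mean CPM of the members in each IMR-90 group and was detected in all libraries of both lines. CCL3 (ENSG00000277632, chromosome 17, 36088256 to 36090169, minus strand) and CCL20 (ENSG00000115009, chromosome 2, 227805739 to 227817564, plus strand) reached several CPM in some senescent groups. Mean CCL20 did so only in senescent IMR-90 with control siRNA or in the compound experiment. Its means in senescent SK-MEL-103 groups were 0.0981 to 0.288 CPM. CCL5 (ENSG00000271503, chromosome 17, 35871491 to 35880793, minus strand) and CCL26 (ENSG00000006606, chromosome 7, 75769533 to 75789896, minus strand) stayed at or below a few CPM in IMR-90. Both were near zero in SK-MEL-103, with 16 counts of CCL5 and 13 of CCL26 over all 18 SK-MEL-103 libraries. CCL7 (ENSG00000108688, 34270221 to 34272242) and CCL8 (ENSG00000108700, 34319036 to 34321402), which follow CCL2 on the plus strand of chromosome 17, were near zero in all 16 groups. CCL7 had 18 counts in the 48 libraries together, at most 4 in a library, and CCL8 had 20 counts, at most 7 in a library and 0 in SK-MEL-103. Near zero means at most 10 counts in every library of a group or line. Neither CCL7 nor CCL8 passed the filter on low counts, CCL5 passed it in the compound experiment, CCL26 in both IMR-90 experiments, and CCL2, CCL3 and CCL20 in all 3 experiments.

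**Figure D1:**
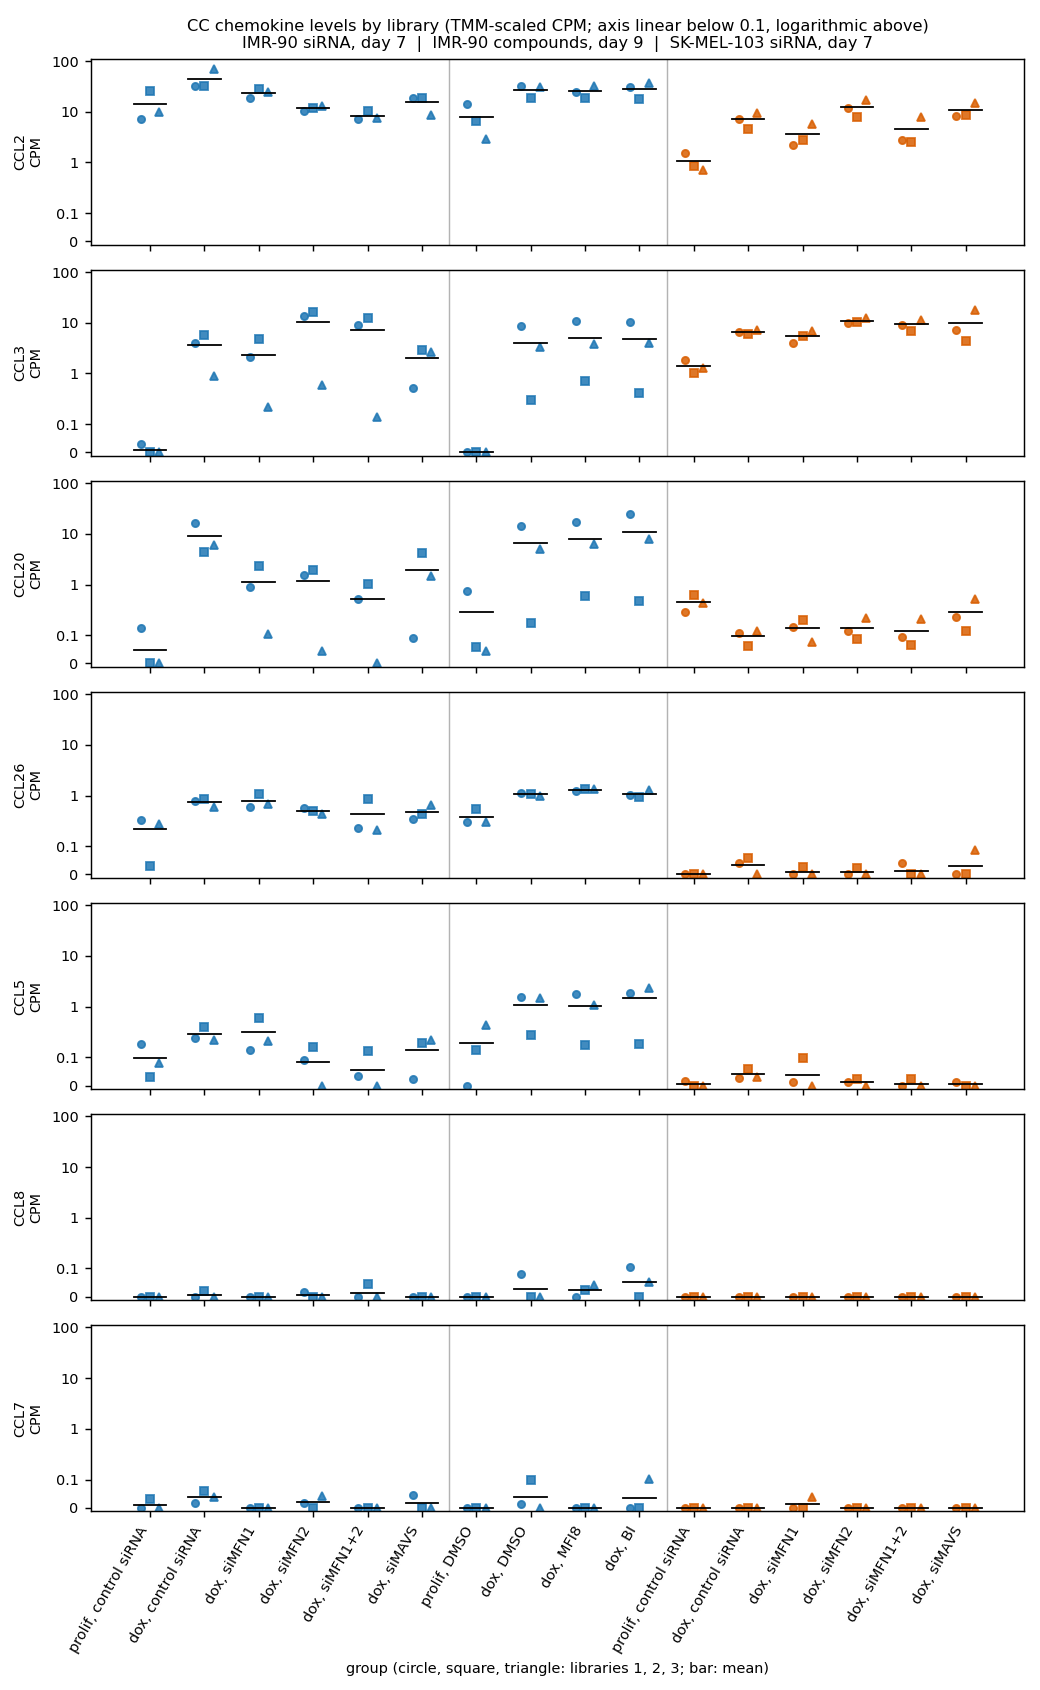
CPM of the 7 members (rows) in the 16 groups, on an axis that is linear below 0.1 and logarithmic above. Circles, squares and triangles are libraries 1, 2 and 3 of a group, bars are group means, blue is IMR-90 and orange SK-MEL-103. CCL7 and CCL8 lie near 0 throughout, and CCL3 is at or near 0 in proliferating IMR-90 libraries.

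Levels between genes were compared per kilobase of exon. In senescent IMR-90 with control siRNA, CCL2 stood at 22.7 CPM per kilobase, CCL20 at 5.64, CCL3 at 2.41, CCL26 at 1.06 and CCL5 at 0.193. In IMR-90 siMFN2 and siMFN1+2 the order of the first places by this measure was reversed. CCL3 stood at 6.82 and 4.79 CPM per kilobase and CCL2 at 5.88 and 4.19. In senescent SK-MEL-103 with control siRNA the first place went to CCL3, at 4.42 CPM per kilobase against 3.57 for CCL2. These orders depend on the lengths, which join all annotated exons (1986 bases for CCL2, its whole span, and 1494 for CCL3). In mean CPM, CCL2 stayed above CCL3 in each of these groups (11.7 and 10.2, 8.32 and 7.16, 7.1 and 6.6). In IMR-90 library 3, CCL3 was far below CCL2 (0.596 and 13.1 CPM with siMFN2, 0.14 and 7.5 with siMFN1+2). Over the groups, CCL2 was highest in senescent IMR-90 with control siRNA and lowest in proliferating SK-MEL-103 (1.05 ± 0.455 CPM, SD, n = 3), whose highest library (1.57) was below every library of the next group, SK-MEL-103 siMFN1. CCL3 was highest on average in SK-MEL-103 siMFN2 (10.9 ± 1.3 CPM) and in IMR-90 siMFN2 (10.2 ± 8.46), and these groups overlapped. CCL20 was highest in senescent IMR-90 with BI (10.8 ± 12.1 CPM), a group that overlapped with the other senescent IMR-90 groups of the same experiment.

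Doxorubicin raised CCL2, CCL3, CCL20 and CCL26 in IMR-90 on day 7. CCL2 was 7.22, 26.1 and 9.69 CPM in proliferating libraries 1, 2 and 3, and 32.6, 32.3 and 70.5 CPM in senescent ones. All senescent libraries were above all proliferating ones, and the log2 fold change was 1.64 (SE 0.446, adjusted p = 0.007, edgeR quasi-likelihood test with Benjamini-Hochberg adjustment, as for adjusted p-values below unless another tool is named). Without the libraries labelled 89 to 93 it was 0.97 (adjusted p = 0.18), and with all libraries and a term for those label numbers 1.59 (adjusted p = 0.0096). In bulk RNA a change in the number of cells that make a chemokine and a change in RNA per cell cannot be told apart. CCL3 was 0.0281, 0 and 0 CPM in proliferating libraries, 2 counts in all, and 4.05, 5.86 and 0.9 CPM in senescent ones. The ratio of the groups was 268, with a counting interval (95%, exact) of 73.7 to 2210 (adjusted p = 0.0045). The senescent library numbered 3 was the lowest of its group, but it too lay above every proliferating library.

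CCL20, the CCR6 ligand, was 0.141, 0 and 0 CPM in proliferating IMR-90 libraries and 16.6, 4.39 and 5.97 CPM in senescent ones (log2 fold change 7.04, SE 1.69, adjusted p = 0.0031). Proliferating cells thus gave 10 counts of CCL20 in all, from 1 library, against 1479 in senescent cells. CCL26 was 0.338, 0.0298 and 0.277 CPM in proliferating libraries and 0.774, 0.871 and 0.6 CPM in senescent ones, which did not overlap (log2 fold change 1.72, SE 0.613, adjusted p = 0.03). The CCL26 call was lost in 3 of 6 repeats that left out 1 library, with an adjusted p of up to 0.08. CCL5 did not pass the filter and had 43 counts in senescent and 16 in proliferating libraries. Of 19077 genes tested, 25.9% were called higher and 23.6% lower, and senescent libraries lay wholly above proliferating ones in 29.8%. Of the 4 members tested, 4 were called higher and lay wholly above. However, CCL3 and CCL20 could pass the filter only through senescent groups, and CCL26 could not pass it through proliferating libraries alone.

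The other genes of the CC chemokine system were sparse in IMR-90. Of 17 other CC ligands in the table, 1 was tested and rose, CCL4, a monocyte attractant encoded near CCL3, from 0 counts in proliferating cells to 20 in senescent ones, at least 6-fold over a floor of 3 counts for the group. CCL4 too could pass the filter only through senescent groups. Of 13 receptors, 7 were tested, and CCR7, the lymph node homing receptor, and the scavenging receptors ACKR2 and ACKR4 rose, with log2 fold changes of 2.43, 2.9 and 2.17 (adjusted p = 0.019, 0.026 and 0.013). Their levels were low: ACKR4 reached 0.569 ± 0.0608 CPM (SD, n = 3). The median log2 fold change of the 7 receptors was 1.41, against 0.09 over all genes tested.

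Among 23 inducers and NF-kB pathway genes, 9 rose and 4 fell (median 0.37), beside 25.9% and 23.6% of all genes. The cytokines TNF and IL1A, which switch on NF-kB, had the largest rises (log2 fold changes 5.18 and 5.1, adjusted p = 0.0035 and 0.002). IRAK1 and NFKB1, a receptor-associated kinase and an NF-kB subunit, had the largest falls (-1.45 and -0.89). Of 14 RNA and DNA sensing and interferon genes tested, 4 rose and 2 fell (median 0.24), a share of rises close to that of all genes. STAT2 and RIGI, an interferon signal transducer and an RNA sensor, were among the rises (1.07 and 1.05), and CGAS, the cytosolic DNA sensor, was among the falls (-2.34). Of 10 genes that tether or cleave chemokines, 5 rose and 1 fell (median 1.08). DPP4, a peptidase that trims the ends of several CC chemokines, rose from 14.5 ± 12.7 to 169 ± 62 CPM, and the matrix protease MMP3 had a log2 fold change of 3.81 (adjusted p = 0.0014). Of 5 IL-4 and IL-13 signalling genes, upstream of CCL26 in other cells, the receptor chains IL13RA1 and IL13RA2 rose (0.75 and 2.85).

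On day 9 in DMSO the same contrast was measured in other IMR-90 libraries. CCL2 was 14.3, 6.7 and 2.89 CPM in proliferating libraries and 32.8, 18.3 and 30.9 CPM in senescent ones (log2 fold change 1.71, SE 0.511, adjusted p = 0.016; 0.058 without proliferating library 2). CCL3 had 0 counts in the proliferating libraries and 8.5, 0.295 and 3.27 CPM in the senescent ones, at least 208-fold over a floor of 3 counts for the group (adjusted p = 0.013). CCL26 rose from 0.383 ± 0.136 to 1.05 ± 0.0764 CPM (SD, n = 3; log2 fold change 1.38, SE 0.285, adjusted p = 0.0021). Senescent libraries lay above all proliferating ones for each of the 3 genes. Of 19056 genes tested 28.3% were called higher and 26.2% lower, and 33.8% had senescent libraries wholly above. Of the 5 members tested, 3 were called higher, but CCL3 could pass the filter only through senescent groups, and CCL5 and CCL20 nearly so.

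CCL20 on day 9 was 0.755, 0.0568 and 0.0437 CPM in proliferating libraries and 14.5, 0.172 and 5.14 CPM in senescent ones. The senescent library 2 lay within the proliferating range, and the difference was not called (log2 fold change 4.24, SE 1.79, adjusted p = 0.066). Libraries of the same number deviated together only weakly in this comparison (correlations 0.14, 0.15 and 0.3). With the replicate number as a block in a fit of the 2 groups, CCL20 was called (4.46, SE 0.69, adjusted p = 0.0052). That fit called 27.3% of genes higher. CCL5, attractant of T cells, was 0, 0.142 and 0.437 CPM and 1.53, 0.27 and 1.45 CPM, and again the senescent library 2 overlapped with the proliferating ones (2.62, adjusted p = 0.12). Without the number 2 libraries of all groups, a choice made after seeing the data, CCL5 had 3.32 (adjusted p = 0.014) and CCL20 4.24 (adjusted p = 0.0027). In the same senescent library 2 the cytokine IL1B stood at 3.49 CPM against 197 and 76.5 in libraries 1 and 3. CCL2 was 18.3 CPM there against 32.8 and 30.9, and CCL26 1.08 against 1.11 and 0.968. The part of such a library difference in these results was not tested.

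Of the related genes on day 9, ACKR2, ACKR4, CCR7 and CCR10 rose, 4 of 7 receptors tested (log2 fold changes 3.34, 5.18, 4.49 and 1.29). Neither of the 2 other CC ligands tested was called, and CCL4 had an adjusted p of 0.084. Of 23 inducers and NF-kB genes 4 rose and 4 fell, and TNF and IL1A, called on day 7, were not called (3.38 and 1.79, adjusted p = 0.09 and 0.14). MMP3 and IL13RA2 were not called on day 9 either (1.45 and 0.9, adjusted p = 0.16 and 0.41). DPP4 and IL13RA1 rose (4.09 and 0.5), IRAK1 and NFKB1 fell (-1.49 and -0.96), and of 14 sensing and interferon genes 7 rose and 2 fell, with STAT2 higher (1.63) and CGAS lower (-1.73).

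In SK-MEL-103 doxorubicin raised CCL2 and CCL3 and lowered CCL20. CCL2 was 1.57, 0.855 and 0.722 CPM in proliferating libraries and 7.32, 4.51 and 9.46 CPM in senescent ones (log2 fold change 2.66, SE 0.515, adjusted p = 0.00028). CCL3 was 1.88, 1.03 and 1.3 CPM and 6.69, 5.89 and 7.23 CPM (2.19, SE 0.406, adjusted p = 0.00019). For both genes the groups were well apart. CCL20 had 17, 28 and 9 counts in proliferating libraries and 8, 3 and 4 in senescent ones, that is 0.452 ± 0.169 against 0.0981 ± 0.0337 CPM (SD, n = 3; log2 fold change -2.21, SE 0.538, adjusted p = 0.002). The senescent SK-MEL-103 group is therefore near zero in CCL20. Of 17945 genes tested, 29.4% were called higher and 29.9% lower, and the groups lay apart in those directions for 32.6% and 30%. Of the 3 members tested 2 were called higher and 1 lower, with groups apart in 3 of 3. However, CCL20 passed the filter chiefly through the proliferating libraries, the group where it is high.

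The doxorubicin effects of the lines were then compared in a fit of 36 libraries. The effect on CCL20 differed between the lines (adjusted p = 0.00029), with a rise in IMR-90 and a fall in SK-MEL-103. As a ratio, the effect on CCL3 was smaller in SK-MEL-103 (adjusted p = 0.047), where proliferating cells already had CCL3, at 1.4 ± 0.432 CPM. That call was lost in 11 of 12 repeats that left out 1 library, with an adjusted p of up to 0.1. The IMR-90 ratio stands on 2 counts in proliferating cells. In CPM the rise of CCL3 was not smaller in SK-MEL-103 (1.4 to 6.6) than in IMR-90 (0.00938 to 3.61). For CCL2 the difference, SK-MEL-103 minus IMR-90, was 1.13 (95% interval -0.27 to 2.54, adjusted p = 0.26). Of 20892 genes tested 9.33% were called lower in this difference, and 2 of the 4 members tested; the other member was CCL26, which is near zero in SK-MEL-103.

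Among the related genes, CCL28, a mucosal chemokine, was at 7.51 ± 1.11 CPM in proliferating and 9.51 ± 1.71 CPM in senescent SK-MEL-103 cells, and had 0 counts in proliferating IMR-90. CCL4 rose in SK-MEL-103 (log2 fold change 3.21, adjusted p = 0.00022), 1 of the 2 other ligands tested there. CCR1, a receptor for CCL3 and CCL5, rose from 22 ± 7.01 to 41.8 ± 1.45 CPM (SD, n = 3; adjusted p = 0.00061), whereas it was at 0.546 ± 0.313 CPM in senescent IMR-90. Of 20 inducers and NF-kB genes tested 6 rose and 6 fell, in each direction a share close to the 29.4% and 29.9% of all genes. IL1B had the highest value (2.3) and NFKB1 the lowest (-1.14). The other lists had larger shares of rises: 8 of 13 sensing and interferon genes tested rose and 1 fell (median 0.54). Of 8 genes that tether or cleave chemokines 6 rose (median 1.17) and 1 fell, MMP3 (-6.28), which rose in IMR-90 on day 7. Of 4 IL-4 and IL-13 signalling genes 3 rose and 0 fell (median 0.31). The median over all genes was 0.03.

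**Figure D2:**
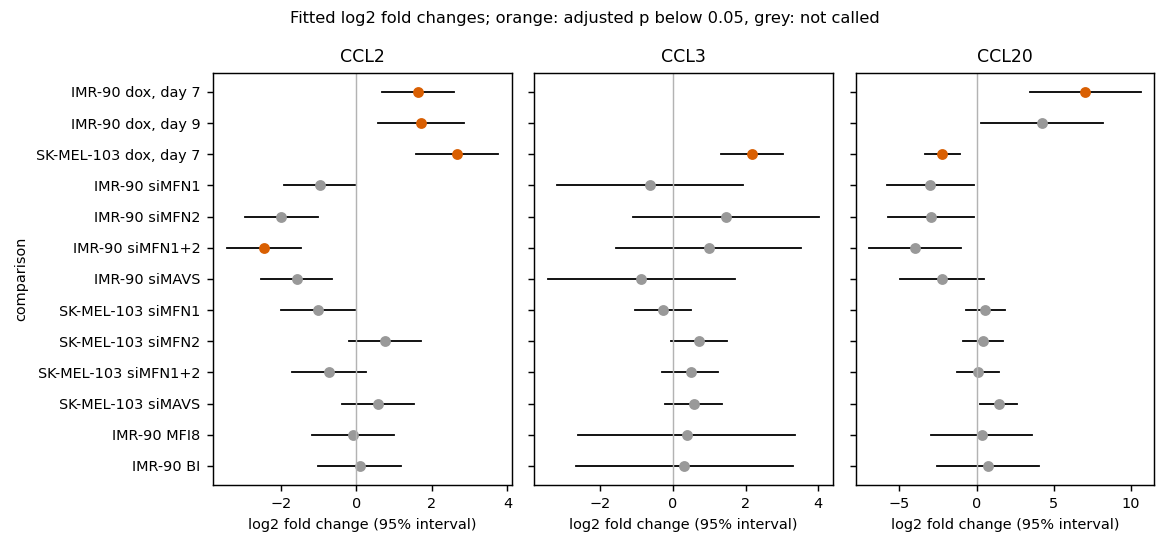
Fitted log2 fold changes of CCL2, CCL3 and CCL20 with unadjusted 95% intervals in 13 comparisons. Orange points passed an adjusted p below 0.05 and grey points did not. The fold changes of CCL3 with doxorubicin in IMR-90 are left out because proliferating cells had 0 to 2 counts. CCL20 moves in opposite directions with doxorubicin in the lines.

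Silencing was compared with control siRNA in senescent cells. The 4 comparisons of a line share the same 3 control libraries, so a control library that is high or low moves all 4. In IMR-90, libraries of the same number deviated together for the control siRNA group and siMFN1, siMFN2 and siMFN1+2, and blocked values of fits of 2 groups stand beside the unblocked ones. No such pairing was seen for siMAVS. A block fitted over all 6 groups of the line, in which not all groups pair by number, called CCL2 with siMFN1+2 in IMR-90 (adjusted p = 0.015) and no other member in the silencing comparisons of either line. There CCL2 had an adjusted p of 0.22 with siMFN1 and 0.067 with siMFN2, CCL20 had 0.14, 0.19 and 0.083 with siMFN1, siMFN2 and siMFN1+2, and CCL3 with siMFN2 had 0.64.

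CCL2 was lower in IMR-90 with both mitofusins silenced, at 7.22, 10.2 and 7.5 CPM in libraries 1, 2 and 3. The control siRNA libraries were at 32.6, 32.3 and 70.5 CPM. The groups were far apart, and the log2 fold change was -2.45 (SE 0.46, adjusted p = 0.023; blocked -2.3, SE 0.23, adjusted p = 0.00043). CCL2 was the 1 member of 4 tested called in this comparison, where 0.566% of genes were called lower. The blocked fit called 7.98% of genes lower, CCL2 and CCL20 among them. The unblocked call was lost in 4 of 6 repeats that left out 1 library, with an adjusted p of up to 0.14, and without the libraries labelled 89 to 93 it was -1.92 (adjusted p = 0.35). It was also lost when the fit held only the 2 groups (adjusted p = 0.11). The level with both silenced lay below the mean of proliferating cells (14.3 ± 10.3 CPM), but within their range.

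With siMFN2 alone CCL2 was 10.3, 11.6 and 13.1 CPM, again below all controls (log2 fold change -1.98, SE 0.45, adjusted p = 0.13). It was called in the blocked fit (-1.87, SE 0.17, adjusted p = 0.00059) and by DESeq2 (adjusted p = 0.0023). With siMFN1 alone CCL2 was 18.4, 27.5 and 24.1 CPM, also below the lowest control of 32.3 (-0.97, adjusted p = 0.34; blocked -0.88, SE 0.2, adjusted p = 0.016). With siMAVS it was 18.7, 19.1 and 8.44 CPM (-1.58, SE 0.44, adjusted p = 0.14; DESeq2 adjusted p = 0.022). CCL2 was thus below every control library in all 12 silenced IMR-90 libraries, 3 of 3 in each group, and edgeR without the block called it for siMFN1+2. Of all genes tested, 8.38% lay wholly below the controls with siMFN1, 7.8% with siMFN2, 10% with siMFN1+2 and 7.33% with siMAVS.

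CCL20 in IMR-90 was 0.908, 2.33 and 0.107 CPM with siMFN1, 1.56, 1.91 and 0.0426 CPM with siMFN2, and 0.524, 1.05 and 0 CPM with siMFN1+2. The control siRNA libraries were at 16.6, 4.39 and 5.97 CPM. Every library of these groups was below every control. The log2 fold changes were -2.99, -2.93 and -3.98, and none was called without the block (adjusted p = 0.32, 0.41 and 0.19). With the block they were -3.03, -2.86 and -3.8 (adjusted p = 0.0091, 0.012 and 0.0025). With siMAVS, CCL20 was 0.0905, 4.21 and 1.45 CPM, each below the lowest control of 4.39 (-2.23, adjusted p = 0.49). The library with the lowest CCL20 in that group also had the lowest CCL3 and, at 0.384 CPM, the lowest IL1B, where the other siMAVS libraries had 101 and 50.5.

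CCL3 had fold changes of different sign between the siRNAs, and that difference was not tested. With siMFN2 it was 13.4, 16.6 and 0.596 CPM, against 4.05, 5.86 and 0.9 CPM in the controls, higher in libraries 1 and 2 and lower in library 3 (log2 fold change 1.47, adjusted p = 0.71; blocked 1.3, SE 0.29, adjusted p = 0.022). With siMFN1+2 it was 8.86, 12.5 and 0.14 CPM (0.98, adjusted p = 0.79), with the same split between the libraries. With siMFN1 it was 2.08, 4.71 and 0.214 CPM, below the control of the same number in 3 of 3 cases (-0.63, blocked adjusted p = 0.064). With siMAVS it was 0.52, 2.85 and 2.62 CPM and overlapped with the controls.

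**Figure D3:**
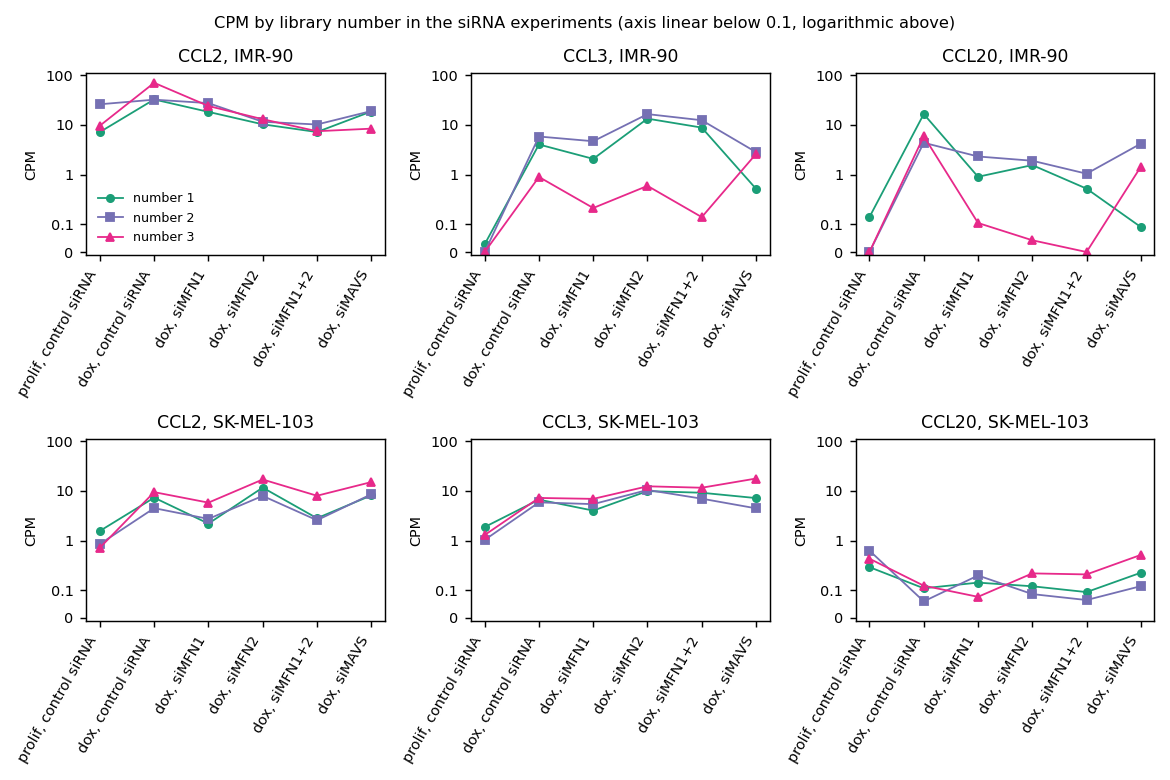
CPM of CCL2, CCL3 and CCL20 in the siRNA experiments by library number, IMR-90 above and SK-MEL-103 below, on an axis linear below 0.1 and logarithmic above. Lines join libraries that share a number in their titles (the SK-MEL-103 siMFN2 library without a number is drawn as number 1) and do not mark a time course. In IMR-90, number 3 falls below 0.6 CPM of CCL3 in the mitofusin-silenced groups, while CCL2 of that number stays above 7 CPM.

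In IMR-90, edgeR called 0 of the 4 members tested with siMFN1 (2 at an unadjusted p below 0.05, 0 by DESeq2), 0 with siMFN2 (2 and 1) and 0 with siMAVS (1 and 1). Of all genes it called 1.08%, 0.0839% and 0.204% in either direction. The blocked fits called 2 members lower with siMFN1 and 2 lower and 1 higher with siMFN2, where 7.78% of genes were called lower with siMFN1, and 6.17% lower and 6.74% higher with siMFN2. CCL26 was not called in any of them. Its mean was 0.748 ± 0.137 CPM in controls and 0.43 ± 0.365 to 0.794 ± 0.27 CPM in the silenced groups, and with siMFN2 (0.565, 0.5 and 0.426 CPM) it lay below all controls. CCL5 had at most 19 counts in a silenced library. Among the listed pathway genes, the transcription factor CEBPD fell with siMFN1 and siMFN1+2 (-1.26 and -1.29, adjusted p = 0.043 and 0.038). With siMFN1+2 the NF-kB subunits NFKB2 and RELB fell as well (-1.14 and -0.94, adjusted p = 0.023 and 0.043), 3 of 23 inducers and NF-kB genes. SDC4, a cell surface proteoglycan that binds chemokines, fell with siMFN1 (-1.35, adjusted p = 0.043).

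In SK-MEL-103 the fold changes of CCL2 had opposite signs with siMFN1 and siMFN2, and that difference was not tested. It was 2.2, 2.74 and 5.82 CPM with siMFN1, against 7.32, 4.51 and 9.46 CPM in the controls, lower in 3 of 3 libraries of the same number but overlapping as groups (log2 fold change -1.02, adjusted p = 0.99; blocked -1.09, SE 0.16, adjusted p = 0.00036). With siMFN2 it was 11.7, 7.95 and 17 CPM, with 2 of 3 libraries above all controls (0.77, adjusted p = 1). A blocked fit on the 2 numbered pairs, too few for the pairing rule used here, called CCL2 higher (0.82). That fit called 355 of 17251 genes higher. With siMFN1+2 it was 2.82, 2.57 and 8 CPM (-0.73, adjusted p = 1; blocked -0.85, SE 0.16, adjusted p = 0.002). The block over all groups called CCL2 with neither siMFN1 nor siMFN1+2 (adjusted p = 0.3 and 0.79). With siMAVS it was 8.12, 8.57 and 15.1 CPM and overlapped with the controls.

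CCL3 in SK-MEL-103 was 9.93, 10.5 and 12.4 CPM with siMFN2, above all controls (6.69, 5.89 and 7.23). The log2 fold change of 0.71 was not called (adjusted p = 1), and 6.74% of genes lay wholly above the controls there. The blocked fit on the 2 numbered pairs, too few for the pairing rule, called CCL3 higher (0.79). With siMFN1+2 it was 9.2, 6.99 and 11.6 CPM (0.48; blocked 0.45, SE 0.09, adjusted p = 0.0053). With siMFN1 it was 4.02, 5.42 and 6.93 CPM and with siMAVS 7.18, 4.47 and 17.8 CPM, both overlapping with the controls. CCL20 had at most 16 counts in any silenced SK-MEL-103 library.

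Without the block edgeR and DESeq2 called 0 of the 3 members tested in any SK-MEL-103 silencing comparison, and at an unadjusted p below 0.05 there was 1 with siMFN1, 0 with siMFN2, 0 with siMFN1+2 and 1 with siMAVS. Of all genes edgeR called 0.0892%, 0.0167%, 0.173% and 0.0836%. The blocked fits called 9.77% of genes lower with siMFN1, and 4.31% lower and 3.89% higher with siMFN1+2.

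The silencing effects of the lines were also compared. For CCL2 the difference, SK-MEL-103 minus IMR-90, was 2.74 for siMFN2 (SE 0.671, 95% interval 1.36 to 4.11), but its adjusted p was 0.33; DESeq2 gave 0.03 and edgeR without the filter on low counts 0.021. It was 2.13 for siMAVS and 1.72 for siMFN1+2 (adjusted p = 0.35 and 0.47), and -0.04 for siMFN1 (interval -1.39 to 1.31). edgeR called none of the 4 members tested in these 4 differences, with 1, 2, 2 and 2 at an unadjusted p below 0.05 for siMFN1, siMFN2, siMFN1+2 and siMAVS. Of all genes it called 0.115%, 0.0239%, 0.129% and 0.0239%.

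MFI8 and BI were compared with DMSO in senescent IMR-90 on day 9. CCL2 was 24.9, 18.5 and 32 CPM with MFI8 and 31.4, 17.4 and 37.2 CPM with BI, against 32.8, 18.3 and 30.9 CPM in DMSO. The log2 differences were -0.09 (95% interval -1.18 to 1) and 0.09 (-1.01 to 1.18). CCL3 was 10.7, 0.721 and 3.84 CPM with MFI8 and 10.2, 0.418 and 4.06 CPM with BI, against 8.5, 0.295 and 3.27 CPM, each library above the DMSO library of its number. The log2 differences of 0.37 (interval -2.61 to 3.36) and 0.31 (-2.68 to 3.29) were small beside the spread between library numbers.

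CCL20 was 17.2, 0.597 and 6.45 CPM with MFI8 and 24.1, 0.471 and 7.75 CPM with BI, against 14.5, 0.172 and 5.14 CPM in DMSO, and was again above DMSO in 3 of 3 numbers with either compound. The log2 difference for BI was 0.73 (interval -2.54 to 4.01, adjusted p = 1), and with the block 0.76 (SE 0.1, adjusted p = 4.1e-06), in a fit that called 1.39% of genes higher; with a block over all 4 groups it was 0.77 (SE 0.3) and not called (adjusted p = 1). For MFI8 it was 0.33 (interval -2.94 to 3.6) and, with the block, 0.39 (adjusted p = 0.21), in a fit that called 0.781% of genes higher. CCL26 was 1.21, 1.37 and 1.37 CPM with MFI8, above all DMSO libraries (1.11, 1.08 and 0.968), with a log2 difference of 0.34 (interval -0.25 to 0.93) that was not called, where 1.49% of genes lay wholly above DMSO. For CCL26 with BI (1.1 ± 0.185 CPM) and for CCL5 with MFI8 (1.02 ± 0.823) and BI (1.47 ± 1.14) the groups overlapped with DMSO. With either compound edgeR called 0% of 19056 genes without the block, 303 and 127 had an unadjusted p below 0.05 with MFI8 and BI, and DESeq2 called 1 and 0. Of the 5 members tested, 0 had an unadjusted p below 0.05 with either compound. The intervals above are from fits without the block. In the blocked fits of 2 groups the SE of CCL3, CCL5 and CCL20 was 0.1 to 0.25.

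**Figure D4:**
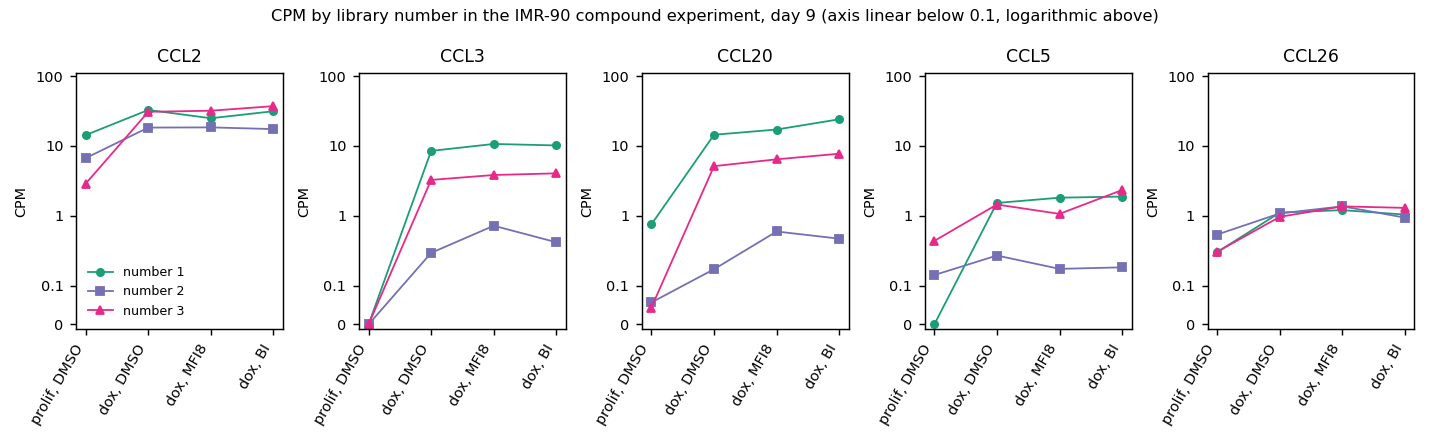
CPM of CCL2, CCL3, CCL20, CCL5 and CCL26 in the IMR-90 compound experiment on day 9, by library number, on an axis linear below 0.1 and logarithmic above. Lines join libraries that share a number. After doxorubicin, number 2 stays below 1 CPM of CCL3, CCL20 and CCL5. Its CCL2 is the lowest of the numbers in each group, at 18.3, 18.5 and 17.4 CPM in DMSO, MFI8 and BI, and its CCL26 lies near that of the others.

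The members did not move as one set in the siRNA experiments. Over the 18 IMR-90 siRNA libraries, Pearson's r of log2(CPM + 0.5) was -0.06 between CCL2 and CCL3, 0.55 between CCL2 and CCL20 and 0.58 between CCL3 and CCL20. In that set the number 3 control library had 70.5 CPM of CCL2 and 0.9 of CCL3. In SK-MEL-103 CCL2 and CCL3 had an r of 0.85. Over the 12 compound libraries r was 0.98 between CCL3 and CCL20, 0.78 between CCL2 and CCL3 and 0.77 between CCL2 and CCL20. These libraries share their groups and, within a number, depth, so the values are descriptions. The genes most like CCL20 in IMR-90 were CSF2, a myeloid growth factor (r = 0.979), ZC3H12A, an RNase that degrades inflammatory mRNAs (0.958), and CXCL10, an interferon-induced chemokine (0.955). For CCL3 they included RIC3 (0.958) and SLC30A7 (0.945), and for CCL2 they were WEE2-AS1 (0.827), ACKR4 (0.824) and SYT11 (0.824). In SK-MEL-103 the genes most like CCL2 were TENM2 (0.975), LACTB (0.965) and ASIC1 (0.958), and those most like CCL3 were TRIM29 (0.956), GPNMB (0.951) and GPR137 (0.95).

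CCL3 has near-identical copies nearby, and reads can be split between them. CCL3L3 had 177 counts in IMR-90 and 2 in SK-MEL-103, against 6108 and 5738 for CCL3, so the CCL3 values carry that uncertainty.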

How the data were processed

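One table of raw counts per gene, deposited by the authors, was used. Per the submitters' processing notes, Trim Galore 0.6.7, STAR 2.7.10a, featureCounts and GRCh38 were used; annotation release and strand setting are not given in the sources used here. Per the labels, libraries were stranded mRNA preparations of total RNA. Symbols came from a table of gene names (48679 of 48898 identifiers; the others held 0.122% of counts). The members and lists were chosen with earlier results of these data known. Genes were named by a fixed rule: the 7 members, the siRNA targets, up to 2 highest and 2 lowest called genes per list and comparison, and the 3 genes most like a member (some genes that the rule names are not reported here); IL1B in single libraries, CCL28 and CCL3L3 were chosen after their values were seen.

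Levels are TMM-scaled CPM over 48 libraries (edgeR 4.0.16, R 4.3.3). Each of 13 comparisons was tested with edgeR's quasi-likelihood test (filterByExpr, TMM, estimateDisp) over all groups of its experiment, with Benjamini-Hochberg adjustment over all genes and a threshold of 0.05; 5 differences between the lines used 36 libraries. The procedure was tested on simulated data with independent libraries. That simulation held no pairing by library number, so it does not bear on the replicate block. Alternatives were DESeq2 1.42.0, RLE scaling, no filter, the replicate block, fits of 2 groups, a term for label numbers 89 to 93, leaving out libraries and, added after seeing the data, edgeR's adjusted-deviance fit and fits without the libraries labelled 89 to 93 or of number 2. Standard errors and 95% intervals derive from the F statistic and are approximate. No 2 libraries of a group agreed within sampling noise.

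Replicate numbers come from the titles. Same-numbered libraries were taken as paired where all 3 correlations of their deviations from the group means over genes exceeded 0.1. Against their controls these were IMR-90 siMFN1 (0.47 to 0.74), siMFN2 (0.56 to 0.79) and siMFN1+2 (0.48 to 0.76). In SK-MEL-103 they were siMFN1 (0.36 to 0.64), siMFN1+2 (0.4 to 0.64) and siMAVS (0.22 to 0.38). In the compound experiment they were MFI8 and BI against DMSO (0.79 to 0.94) and, weakly, day 9 doxorubicin (0.14 to 0.3). Pairs of different number also exceeded 0.1, 30 of 90 in the IMR-90 siRNA, 17 of 80 in the SK-MEL-103 and 8 of 36 in the compound experiment. Block fits leave out 1 library of SK-MEL-103 siMFN2 whose title gives no replicate number.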

Additional observations from a re-analysis of the deposited data

Results flagged for a closer look

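The effect of doxorubicin on CCL20 differed between the lines by a test of the difference itself (edgeR quasi-likelihood test, adjusted p = 0.00029): CCL20 was 0.0469 ± 0.0812 CPM in proliferating and 8.98 ± 6.64 in senescent IMR-90, and 0.452 ± 0.169 and 0.0981 ± 0.0337 in SK-MEL-103 (SD, n = 3). The effect on CCL3 also differed (adjusted p = 0.047), from 0.00938 ± 0.0162 to 3.61 ± 2.51 CPM in IMR-90 and from 1.4 ± 0.432 to 6.6 ± 0.675 CPM in SK-MEL-103, and this call was lost in 11 of 12 repeats that left out 1 library.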

How the results depend on the processing

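Over the members' fold changes, RLE scaling left 65 of 65 on the same side of the threshold and in the same direction, DESeq2 59 of 63, no filter on low counts 61 of 65, a term for label numbers 89 to 93 20 of 20, and leaving out 1 library 428 of 480 (19 lost and 1 gained a call, 32 changed sign). Levels scaled by RLE or total counts moved by less than the replicate spread in all 112 member and group means. The number of members called changed as follows. Fits of 2 groups with the replicate block called 1 for BI against DMSO, 2 for day 7 doxorubicin in IMR-90, and in IMR-90 2 for siMFN1, 3 for siMFN2 and 2 for siMFN1+2. The fits over all groups without it called 0, 4, 0, 0 and 1, and fits of the 2 groups without it 0, 3, 0, 0 and 0. In SK-MEL-103 the blocked fits called 1 for siMFN1, 2 for siMFN2 and 2 for siMFN1+2 (0 each without it, with all or 2 groups). The siMFN2 calls there, on 2 pairs, were CCL2 (0.82) and CCL3 (0.79), higher. A replicate block over all groups called 5 for day 9 doxorubicin (3), as did the fit without the number 2 libraries (5). DESeq2, no filter and only the 2 groups each called 4 there, and leaving out 1 library gave 2 to 4. For day 7 doxorubicin in IMR-90 leaving out 1 library gave 3 to 4. Without the libraries labelled 89 to 93 there were 2 for day 7 doxorubicin in IMR-90 and 0 for siMFN1+2, and with only the 2 groups 0 for siMFN1+2. DESeq2 called 1 each for IMR-90 siMFN2, IMR-90 siMAVS and the line difference of the siMFN2 effect; no filter on low counts called 1 each for that difference, SK-MEL-103 siMFN1 and SK-MEL-103 siMFN2. Leaving out 1 library gave 0 to 1 for IMR-90 siMFN1+2 and 1 to 2 for the line difference of the doxorubicin effect. Signs changed for small uncalled log2 values: CCL26 was -0.01 for BI with the block, and for siMFN1 -0.02 with the adjusted-deviance fit and -0.01 without the libraries labelled 89 to 93. CCL3 was 0.17 for IMR-90 siMAVS with the block over all groups. CCL5 was 0.05, 0.01 and 0.03 for MFI8 with the adjusted-deviance fit, with the block and without number 2. Leaving out 1 library, values for BI ranged from -0.65 to 2.02 (CCL20), -0.11 to 0.18 (CCL26), -0.18 to 0.36 (CCL2), -0.83 to 1.47 (CCL3) and -0.04 to 1 (CCL5). For MFI8 they ranged from -0.84 to 1.62 (CCL20), -0.35 to 0.11 (CCL2), -0.76 to 1.54 (CCL3) and -0.78 to 0.48 (CCL5). They were -0.24 to 0.38 for CCL20 in SK-MEL-103 siMFN1+2, -0.27 to 0.29 for CCL26 in IMR-90 siMFN1 and -0.18 to 0.91 for CCL3 in SK-MEL-103 siMAVS. For the line differences they were -0.56 to 0.22 (CCL2) and -0.19 to 1.3 (CCL3) for siMFN1, and -1.07 to 0.11 (CCL3) for siMFN1+2. The cause was not tested. Over all genes, fits of 2 groups called 2879 with the block for IMR-90 siMFN1, 2336 for siMFN2 and 3016 for siMFN1+2, against 1 each without it and 206, 16 and 193 over all groups. In SK-MEL-103 these were 3094, 755 and 1384 with the block, 24, 3 and 51 without it and 16, 3 and 31 over all groups. For MFI8 and BI the block gave 507 and 673, and either fit without it 0. For day 7 doxorubicin in IMR-90 the counts were 4711 with the block, 7583 without it and 9454 over all groups. For siMAVS they were 0, 0 and 39 in IMR-90 and 2, 7 and 15 in SK-MEL-103. Counting depth limits CCL5, CCL7 and CCL8, and CCL20 and CCL26 in SK-MEL-103.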
